A study of Homo sapiens with 16 samples.

Results

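The genes described here are the protein-coding genes whose genomic span, the distance between gene start and gene end, is over 500 kb. The rule uses gene type, span and chromosome (1 to 22 or X), with no measured value in it, and finds 316 of 58735 genes listed, or of 19864 protein-coding genes on those chromosomes. RNA was measured by poly-A RNA-seq in BxPC3 and PANC-1, established cell lines of human pancreatic ductal adenocarcinoma. BxPC3 with gemcitabine, BxPC3 control, PANC-1 with gemcitabine and PANC-1 control had 4 libraries each, 16 in all. Gemcitabine is a deoxycytidine analogue that is built into DNA and blocks its synthesis. The labels give neither its dose or duration nor what the control cells received, and each line is a single cell line and not a panel of tumours. The question put by the design is what gemcitabine changes in the RNA of each line. Whether the libraries of a group are independent cultures is not stated, so the spread behind each p-value may be that of preparation and sequencing only.

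Long genes are mostly intron. An RNA polymerase that starts at the promoter of a very long gene travels for hours before the transcript is complete, and on the way depends on elongation factors, on topoisomerases that release the twist ahead of it and on factors that keep it from ending within an intron. Many very long genes coincide with common fragile sites, regions that break when DNA replication is slowed, and many are best known from neurons, where they encode adhesion molecules, channels and synaptic scaffolds.

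The members spanned 500044 to 2473536 bases with a median of 723997 bases, and the longest was RBFOX1, a splicing factor gene at chr16:5239802-7713338 (GRCh38, plus strand). It was followed by CNTNAP2, PTPRD, DMD and DLG2. Exons made up a median of 1.21% of the span of members, against 16.1% in the other protein-coding genes. The merged exons, by whose length the deposited values are divided, had a median of 10018.5 bases in members, against 4177 bases in the other protein-coding genes. Chromosome 3 held the most members, 37. A span is that of the whole gene model: a median of 26.7% of the annotated transcripts of a member ran over more than 500 kb themselves, 28 members had no such transcript, and 306 members held another gene within their span. The exons of 12 members overlapped those of other genes over more than 20% of their length, and a read there cannot be assigned to one of them without strand, which is not given in the sources used here. At the limit of 500000 bases, AFF2, SPOCK3 and KCNAB1 fell just inside, with spans of 500044, 501412 and 501437 bases, and averaged under 1 FPKM in every group. DIAPH3, CACNA2D1 and RPS6KA2 fell just outside, with spans of 498404, 497354 and 497087 bases. DIAPH3 averaged 4.78 ± 0.341 FPKM in gemcitabine libraries and 1.43 ± 0.203 FPKM in control libraries of BxPC3 (SD, n = 4 each).

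The promoters of 4 members are shown because these genes are among the leading falls and rises described below and because the gene start is where their unlike base composition can be read. Each sequence is from RefSeq (GRCh38.p14) and covers 250 bases before to 50 bases after a transcription start that lies within 1 kb of the deposited gene start, with CpG dinucleotides in capitals. For each line and direction, the member with the largest change that had such an entry was taken. SUMF1 (chr3:4467220-4467519, minus strand) had the largest fall in BxPC3, and HDAC9 (chr7:18086575-18086874, plus strand) had the fourth largest rise there. CDH18 (chr5:20575664-20575963, minus strand) had the third largest fall in PANC-1, and SYT1 (chr12:78864524-78864823, plus strand) had the third largest rise.
SUMF1: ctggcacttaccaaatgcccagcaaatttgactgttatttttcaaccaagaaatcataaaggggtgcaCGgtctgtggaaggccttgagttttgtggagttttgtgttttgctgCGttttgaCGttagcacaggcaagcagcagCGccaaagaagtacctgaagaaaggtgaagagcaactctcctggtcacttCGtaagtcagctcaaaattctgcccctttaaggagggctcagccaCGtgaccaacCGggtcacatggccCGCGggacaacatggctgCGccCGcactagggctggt
HDAC9: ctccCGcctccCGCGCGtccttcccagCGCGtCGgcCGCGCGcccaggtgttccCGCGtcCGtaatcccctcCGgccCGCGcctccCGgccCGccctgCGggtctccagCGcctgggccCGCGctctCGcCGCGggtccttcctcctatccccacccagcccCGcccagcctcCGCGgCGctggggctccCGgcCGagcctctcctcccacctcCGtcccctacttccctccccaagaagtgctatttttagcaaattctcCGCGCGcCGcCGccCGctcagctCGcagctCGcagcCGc
CDH18: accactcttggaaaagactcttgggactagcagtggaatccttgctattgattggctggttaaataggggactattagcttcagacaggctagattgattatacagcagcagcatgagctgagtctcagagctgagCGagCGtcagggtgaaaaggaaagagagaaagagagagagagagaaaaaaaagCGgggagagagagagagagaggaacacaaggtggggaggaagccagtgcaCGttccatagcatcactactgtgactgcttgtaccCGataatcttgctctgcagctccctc
SYT1: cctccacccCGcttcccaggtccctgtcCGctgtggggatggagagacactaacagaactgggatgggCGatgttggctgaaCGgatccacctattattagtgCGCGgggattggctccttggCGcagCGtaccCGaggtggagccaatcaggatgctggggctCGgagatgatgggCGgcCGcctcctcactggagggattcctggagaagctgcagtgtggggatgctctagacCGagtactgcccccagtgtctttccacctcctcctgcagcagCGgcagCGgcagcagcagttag
The SUMF1 window held 11 CpG at 51.3% GC, and the HDAC9 window held 41 CpG at 75% GC. The CDH18 window held 5 CpG at 48.7% GC, and the SYT1 window held 15 CpG at 62% GC. Over all 34961 promoters of the table the median was 14 CpG at 58.7% GC. The windows of both genes that fell hold fewer CpG and less GC than these medians and those of both genes that rose hold more, which describes these 4 windows only. The letters TATAAA, searched on both strands, occur in none of the 4 windows and in 11.5% of all promoters of the table. Of the 316 members, 254 had a promoter entry under their symbol.

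Most members were listed at low levels in both lines. In BxPC3, 64 of 316 members (20.3%) reached FPKM (fragments per kilobase of exon, scaled to library size) of at least 1 in at least 4 of the 8 libraries and were tested, against 54.5% of all protein-coding genes. Of the other 252 members, 13 had no read in any BxPC3 library, 150 stayed under 0.1 FPKM in their highest library, 78 reached 0.1 to 1 FPKM and 11 reached 1 FPKM in too few libraries. In PANC-1, 84 members (26.6%) were tested, against 55.1% of protein-coding genes, and the other 232 comprised 10, 122, 89 and 11 in the same classes. A value at or near 0 in these tables need not mean that a gene is silent, since SUPT4H1, an elongation factor gene that every cell uses, was also listed there in both lines. The median level of the tested members was 2.73 FPKM in BxPC3 and 2.78 FPKM in PANC-1, below the medians of 7.22 and 7.88 FPKM of all tested protein-coding genes. Altogether 99 members were tested in either line, 49 of them in both, 15 in BxPC3 alone and 35 in PANC-1 alone. A few passed the filter because of one group: in BxPC3, 3 members through the gemcitabine libraries alone and 6 through the controls alone, and in PANC-1, 10 and 4. Such a gene had all 4 libraries of one group at 1 FPKM or more and all 4 of the other below it. Its groups could not overlap, so a lack of overlap in these genes follows from the filter. They were DLC1, HDAC9 and SPOCK1 through gemcitabine libraries and ANK3, AUTS2, CPQ, MCTP1, NKAIN2 and SPAG16 through controls in BxPC3. In PANC-1 they were ANK2, FRMD4A, GLIS3, INPP4B, KIAA1217, MAST4, NAV3, PDE10A, TENM3 and ZNF385D through gemcitabine libraries and, among the 4 through controls, ATRNL1, CDH18 and DOCK3. Counts are therefore also given for members whose mean over all 8 libraries of the line is at least 1 FPKM.

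Depth was 22152034 to 37777222 reads in listed genes per library. The sum of 6 epithelial markers was 3897 to 4573 FPKM with gemcitabine and 3653 to 4267 FPKM in BxPC3 controls, and 550 to 758 FPKM with gemcitabine and 336 to 369 FPKM in PANC-1 controls. The 6 fibroblast markers summed to 3.85 to 4.23 FPKM with gemcitabine and 6.46 to 7.18 FPKM in BxPC3 controls, and to 8.19 to 11.7 FPKM with gemcitabine and 11.9 to 12.9 FPKM in PANC-1 controls. The 5 leukocyte markers summed to 7.07 to 8.37 FPKM with gemcitabine and 7.09 to 8.39 FPKM in BxPC3 controls, and to 2.29 to 3.99 FPKM with gemcitabine and 0.94 to 1.2 FPKM in PANC-1 controls, with CD3E at 0 in PANC-1. The sum of 6 neuron markers in PANC-1 was 14.5 to 19.5 FPKM with gemcitabine and 7.71 to 8.21 FPKM in controls, and its highest gene, SYT1, is itself a member. The part of these marker differences in the results was not tested. A pair of libraries stood apart from their groups. PANC-1 gemcitabine replicate 1 differed by base composition: genes in the lowest quartile group of transcript GC content had a median of −0.34 there relative to the control mean, on the log2(FPKM + 1) scale, against 0.077 to 0.10 in the other 3 gemcitabine libraries. BxPC3 control replicate 2 had the lowest levels of long genes among the controls. Results that rest on either library are also given without it.

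In BxPC3, long genes were lower with gemcitabine more often than higher. Of 64 members tested, 12 rose, 34 fell and 18 did not pass the threshold (limma on log2(FPKM + 1), Benjamini-Hochberg adjusted p under 0.05 over all genes tested). Among all 12215 genes tested 37.3% rose and 36.1% fell, so that the members' 18.8% and 53.1% lie on either side of the background. Their median log2 change was −0.22, against 0.00 over all genes tested. The 4 gemcitabine libraries lay wholly below the 4 controls for 29 members and wholly above them for 11, against 33.2% and 34.3% of all genes. The 29 include the 6 members that passed the filter through controls alone, and the 11 the 3 through gemcitabine libraries alone. The groups of these members could not overlap, and such genes were not counted among all genes. With the filter on the mean of all 8 libraries, 11 of 61 members rose and 32 fell, against 37.2% and 35.9% of all genes. Without control replicate 2, 11 rose and 35 fell, or 17.2% and 54.7%, against 38.3% and 36.4% of all genes. After removal of each library's trend on GC content, 9 rose and 36 fell, against 36.8% and 37.9% of all genes.

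The median over the 64 members, relative to the control mean on the log2(FPKM + 1) scale, was −0.23, −0.17, −0.23 and −0.29 in the 4 BxPC3 gemcitabine libraries, against 0.034, −0.063, 0.026 and 0.021 in the 4 controls. All gemcitabine libraries thus lay below all controls, and replicate 2 was the lowest control. The same median over the other protein-coding genes was between 0.013 and 0.019 in the gemcitabine libraries. Reads in all 316 members made up 0.243 ± 0.0141% of listed reads with gemcitabine and 0.278 ± 0.0197% in controls (SD, n = 4 each). Here the groups overlapped, since control replicate 2 had 0.249% and the highest gemcitabine library 0.257%. In bulk RNA, fewer cells with a transcript and less of it per cell cannot be told apart.

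**Figure D1:**
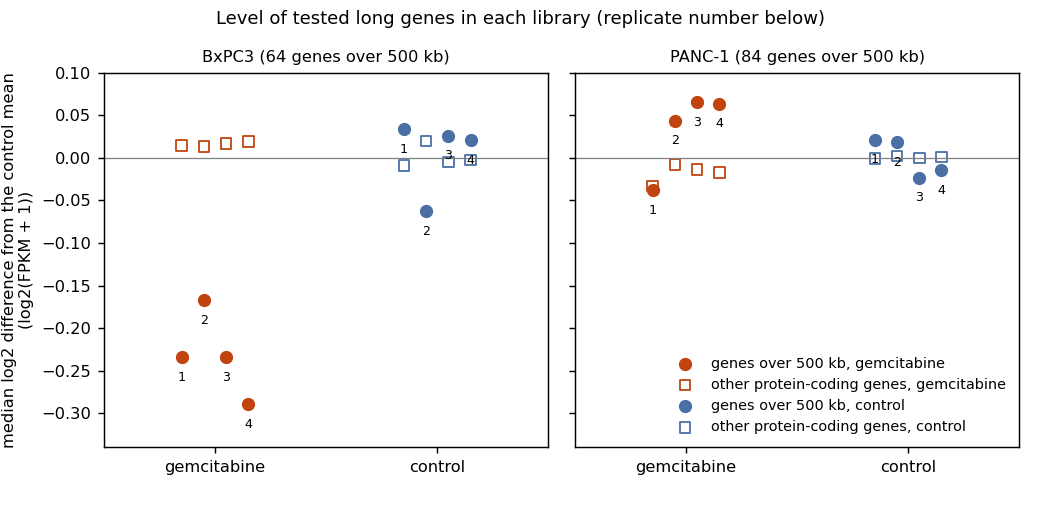
Median over the tested long genes (filled circles) and over the other protein-coding genes (open squares) in each library, as log2(FPKM + 1) minus the mean of the controls, with gemcitabine at the left and control at the right of each panel and the replicate number under each circle. In BxPC3 the 4 gemcitabine libraries sit between −0.29 and −0.17, below all controls, and in PANC-1 they sit between −0.038 and 0.066, on both sides of 0.

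By class of span, the low median in BxPC3 was that of the longest genes. In classes of under 10, 10 to 50, 50 to 100, 100 to 200, 200 to 500 and over 500 kb, the median log2 changes of tested protein-coding genes were −0.04, 0.03, 0.04, 0.015, −0.03 and −0.22. The share that fell was 33.2% to 41.2% in the 5 shorter classes and 53.1% in the longest. Transcript GC content also changes with span, with a median of 56.3% in the shortest class and 45.5% in the longest. Within quartile groups of GC content, the BxPC3 members' medians were −0.38 (14 genes), −0.24 (29 genes), −0.13 (19 genes) and 0.25 (2 genes), lowest GC first, against 0.01, 0.03, 0.03 and −0.02 in the other protein-coding genes. The members' median was negative in the 3 groups that contain 62 of the 64 genes.

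In PANC-1 the medians of the 6 classes were −0.08, −0.02, −0.01, 0.02, 0.03 and 0.04. The share of genes that rose climbed with each class, at 17.4%, 20.4%, 22.1%, 25.3%, 30.7% and 35.7%. Without gemcitabine replicate 1 it was 23.5%, 33.2%, 39.3%, 44.0%, 44.1% and 45.2%, nearly level above 100 kb. The medians of those upper classes were then 0.0605, 0.0595 and 0.0548. With the GC trend removed, 36.1% rose in the class of 200 to 500 kb and 36.9% above it. The share that fell was 21.8% to 28.7% in the 5 shorter classes and 34.5% above 500 kb. Without gemcitabine replicate 1 the shares that fell were 51.0%, 38.1%, 31.0%, 30.3%, 30.8% and 39.3%, and with the GC trend removed they were 39.8%, 38.1%, 36.6%, 34.9%, 37.5% and 38.1%. In both of these settings the shortest genes fell most often, and the longest class no longer stood above all the others. With the filter on the mean of all 8 libraries, 30.3% of the members rose and 36.8% fell. In the class of 200 to 500 kb, 28.7% rose and 24.8% fell with that filter.

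**Figure D2:**
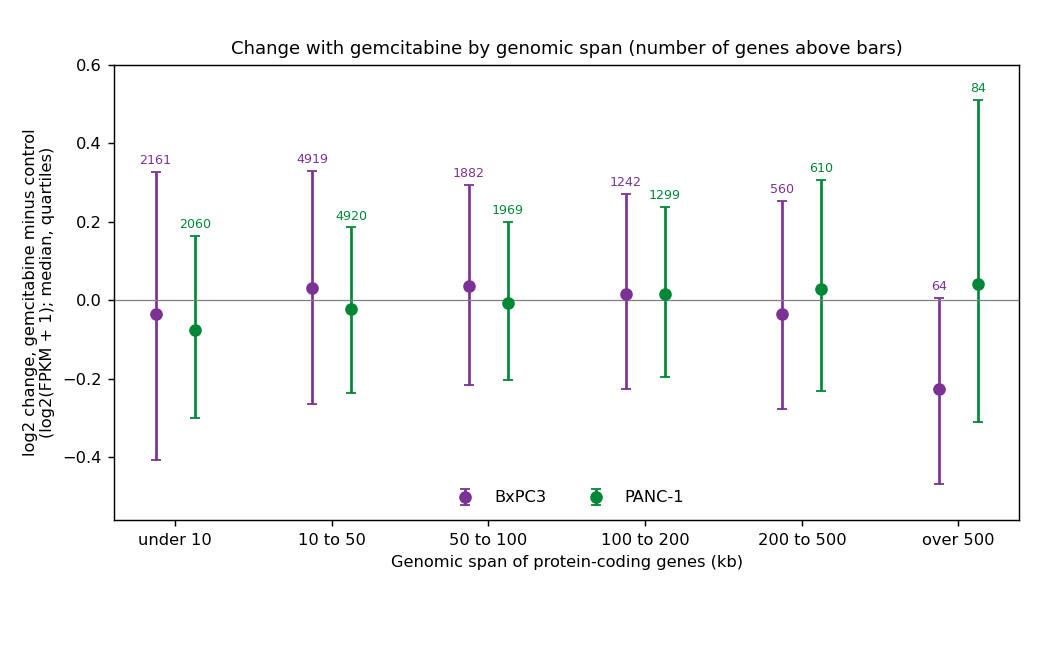
Median (points) and quartiles (bars) of the log2 change, gemcitabine minus control on log2(FPKM + 1), of tested protein-coding genes in 6 classes of genomic span in kb, for BxPC3 and PANC-1, with the number of genes above each bar. The class over 500 kb has a median of −0.22 in BxPC3 and 0.04 in PANC-1.

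The deepest falls in BxPC3 were in genes of unlike function. The leading falls and rises of both lines were picked among called members whose groups did not overlap. The separation of their groups is therefore part of the choice. SUMF1 (chr3:3700814-4467281) encodes the enzyme that activates sulfatases in the endoplasmic reticulum. It had 3.55, 3.27, 3.54 and 3.80 FPKM in gemcitabine libraries, against 7.03, 8.35, 7.44 and 7.84 FPKM in controls. The groups lay far apart, with no overlap (log2 change −0.93, SE 0.06, limma adjusted p = 2.19e-07).

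ROBO1 (chr3:78597240-79767815), a receptor for Slit guidance proteins, had 2.36, 2.30, 2.02 and 1.83 FPKM with gemcitabine, against 4.63, 3.77, 4.60 and 4.49 FPKM in controls. Control replicate 2 was the lowest control and still stood above every gemcitabine library (log2 change −0.78, SE 0.07, limma adjusted p = 5.43e-06). ANK3 (chr10:60026298-60733490) encodes ankyrin-G, which ties membrane proteins to the spectrin cytoskeleton. It had 0.976, 0.976, 0.905 and 0.841 FPKM with gemcitabine, against 2.46, 1.92, 2.48 and 2.45 FPKM in controls. The lowest control was again replicate 2 (log2 change −0.79, SE 0.06, limma adjusted p = 2.15e-06). ANK3 was tested through its controls alone, so its groups could not overlap.

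DPYD (chr1:97077743-97995000) encodes dihydropyrimidine dehydrogenase, the first enzyme of pyrimidine breakdown. Its level was 5.35, 5.12, 5.32 and 5.42 FPKM with gemcitabine, against 9.02, 8.59, 8.45 and 8.79 FPKM in controls. The spread within each group was small beside the gap (0.609-fold, log2 change −0.62, SE 0.04, limma adjusted p = 1.64e-07).

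The other leading falls were SPAG16, a protein of the ciliary axoneme, at 0.331-fold, MCTP1, a membrane protein with calcium-binding C2 domains, at 0.309-fold, TRAPPC9, a subunit of a vesicle tethering complex, at 0.457-fold, and TMEM117 at 0.55-fold. Their limma adjusted p-values lay between 1.11e-07 and 3.39e-06, and the groups did not overlap for any of these 4 genes. SPAG16, MCTP1 and ANK3 were under 1 FPKM in every gemcitabine library and over 1 FPKM in every control. They were tested through their controls, and their groups could not overlap.

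Fewer long genes rose in BxPC3, among them a proteoglycan and a growth factor with large changes. SPOCK1 (chr5:136975298-137598379), which encodes the secreted proteoglycan testican-1, had 1.93, 1.69, 1.70 and 1.57 FPKM with gemcitabine, against 0.103, 0.0973, 0.123 and 0.0732 FPKM in controls. The control libraries held 81 reads of it in total, and it passed the filter through the gemcitabine libraries alone (17.4-fold, log2 change 1.31, SE 0.05, limma adjusted p = 1.16e-08). NRG1, the ERBB receptor ligand neuregulin 1, had 7.50, 7.07, 7.33 and 6.79 FPKM with gemcitabine, against 3.22, 3.18, 3.22 and 3.23 FPKM in controls. The 4 controls were nearly equal, and every gemcitabine library was over 2 times as high (log2 change 0.96, SE 0.04, limma adjusted p = 1.48e-08).

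HDAC9 (chr7:18086949-19002416), a class IIa histone deacetylase, was at 1.57, 1.61, 1.62 and 1.52 FPKM with gemcitabine, against 0.728, 0.756, 0.784 and 0.756 FPKM in controls (log2 change 0.55, SE 0.04, limma adjusted p = 9.04e-07). DLC1, a GTPase-activating protein, averaged 1.51 ± 0.113 FPKM with gemcitabine and 0.522 ± 0.0599 FPKM in controls (SD, n = 4 each; limma adjusted p = 7.64e-07). Both genes passed the filter through the gemcitabine libraries alone, so their groups could not overlap.

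Smaller rises were those of the receptor phosphatase PTPRK (1.30-fold), the Rab activator DENND1A (1.34-fold), the adenosine kinase ADK (1.18-fold) and the receptor phosphatase PTPRG (1.24-fold). PTPRG had the weakest call of these 4 (limma adjusted p = 0.0322). It lost that call without control replicate 2 (limma adjusted p = 0.0612), without gemcitabine replicate 1 (0.0878) or without gemcitabine replicate 2 (0.0691).

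In PANC-1, long genes had more calls than all genes tested in both directions. Of 84 members, 30 rose, 29 fell and 25 did not pass the threshold, or 35.7% and 34.5% in the 2 directions, against 20.7% and 24.0% of all 12508 genes tested (limma, as above). Their median log2 change was 0.04, against −0.02 over all genes. The gemcitabine libraries lay wholly above the controls for 31 members and wholly below for 30, against 21.3% and 24.5% of all genes. The 31 include the 10 members that passed the filter through gemcitabine libraries alone, and the 30 the 4 through controls alone. Their groups could not overlap, and such genes were not counted among all genes. With the filter on the mean of all 8 libraries, 23 of 76 members rose and 28 fell, against 20.3% and 23.9% of all genes. Without gemcitabine replicate 1, 38 rose and 33 fell, against 32.8% and 37.0% of all genes, so that the share of members that fell, 39.3%, was then near the background. Without that library HDAC9 and FBXL17 passed as higher (limma adjusted p = 0.0197 and 0.00121) and DENND1A and SPAG16 as lower (0.0127 and 0.0323), calls that none of these 4 had with all libraries. With the GC trend removed, 31 rose and 32 fell, against 29.3% and 36.8%, and the share that fell, 38.1%, was again near it.

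The median over the 84 members was −0.038, 0.044, 0.066 and 0.064 in the PANC-1 gemcitabine libraries, against 0.021, 0.019, −0.023 and −0.014 in the controls. Replicate 1 with gemcitabine was the lowest of the 8, and the other 3 gemcitabine libraries were the highest. The share of reads in all 316 members was 0.477 ± 0.0295% with gemcitabine and 0.407 ± 0.00947% in controls (SD, n = 4 each). Every gemcitabine library exceeded every control in this share, with the lowest, 0.432%, in replicate 1 and a highest control of 0.419%, also replicate 1. The narrow gap between these libraries rests on SDK1. That gene held 4793 of 95764 member reads in gemcitabine replicate 1 and 998 of 104269 in control replicate 1.

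The leading rises in PANC-1 were large. SDK1 (chr7:3301448-4269000), an immunoglobulin-type adhesion molecule, had 18.3, 13.5, 13.5 and 13.4 FPKM with gemcitabine, against 3.25, 3.50, 3.35 and 3.05 FPKM in controls. Replicate 1 was highest, and the other 3 gemcitabine libraries were nearly equal (4.46-fold, log2 change 1.86, SE 0.10, limma adjusted p = 1.85e-06). NAV2 (chr11:19350724-20121598), a neuron navigator that acts on the cytoskeleton, had 7.29, 6.52, 6.67 and 6.29 FPKM with gemcitabine, against 2.01, 2.18, 2.01 and 1.71 FPKM in controls. These groups too lay far apart (log2 change 1.37, SE 0.07, limma adjusted p = 1.03e-06).

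SYT1 (chr12:78863993-79452008) encodes synaptotagmin 1, the calcium sensor of vesicle release in neurons. Its level was 12.9, 17.8, 17.9 and 17.8 FPKM with gemcitabine, against 6.51, 5.93, 6.02 and 6.16 FPKM in controls. Here replicate 1 was the lowest of the gemcitabine libraries and still above all controls (2.69-fold, log2 change 1.29, SE 0.10, limma adjusted p = 1.73e-05). PDE10A (chr6:165327287-165988078), which breaks down cyclic nucleotides, had 2.16, 2.86, 3.11 and 2.95 FPKM with gemcitabine, against 0.660, 0.561, 0.564 and 0.567 FPKM in controls (4.71-fold, limma adjusted p = 7.14e-06).

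The remaining 4 leading rises were the potassium channel KCNQ5 at 2.70-fold, the phosphoinositide phosphatase INPP4B at 3.57-fold, SPOCK1 at 2.24-fold and ANK2, which encodes ankyrin-B, at 2.99-fold. INPP4B had 1.88, 2.85, 2.96 and 2.98 FPKM with gemcitabine, against 0.766, 0.780, 0.715 and 0.731 FPKM in controls. Replicate 1 with gemcitabine stood apart on the low side. The limma adjusted p-values of these 4 genes lay between 2.97e-06 and 5.57e-05. PDE10A, INPP4B and ANK2 passed the filter through the gemcitabine libraries alone, so their groups could not overlap.

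Among the falls in PANC-1, the gene of protein kinase D1 led. PRKD1 (chr14:29576479-30191898) had 2.46, 2.32, 2.74 and 2.46 FPKM with gemcitabine, against 8.34, 8.29, 7.98 and 8.52 FPKM in controls. Both groups were tight and far apart (0.301-fold, log2 change −1.41, SE 0.06, limma adjusted p = 3.09e-07). CDH18 (chr5:19472951-20575873), a cadherin, had 0.740, 0.704, 0.614 and 0.762 FPKM with gemcitabine, against 1.92, 1.99, 1.77 and 2.03 FPKM in controls, and was tested through its controls (0.366-fold, limma adjusted p = 8.12e-06).

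IMMP2L (chr7:110663051-111562517), a subunit of a peptidase of the inner mitochondrial membrane, had 1.43, 1.43, 1.48 and 1.58 FPKM with gemcitabine, against 2.77, 2.80, 2.24 and 2.75 FPKM in controls. Control replicate 3 was lowest among the controls, with no overlap (0.56-fold, limma adjusted p = 0.000173). The glypican gene GPC6 (chr13:93226842-94407401) had 0.783, 1.49, 1.38 and 1.38 FPKM with gemcitabine, against 2.55, 2.74, 2.60 and 2.57 FPKM in controls, with the lowest value in replicate 1 (0.482-fold, limma adjusted p = 0.000678). The other falls were those of the carboxypeptidase CPQ (0.526-fold), the GTPase-activating protein ARHGAP24 (0.44-fold), GSE1 (0.598-fold) and the exocyst subunit EXOC4 (0.632-fold), with no overlap of groups in any of these 4.

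**Figure D3:**
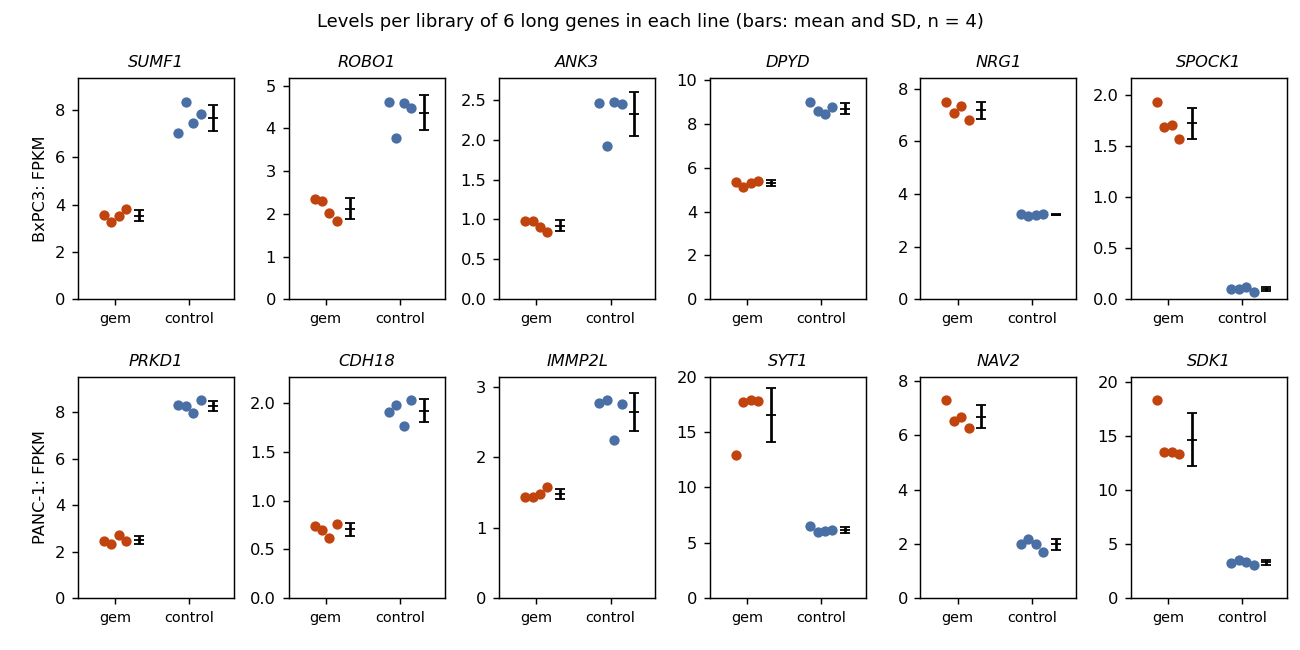
FPKM per library of 6 long genes in BxPC3 (top row) and 6 in PANC-1 (bottom row), with gemcitabine (gem) left of control, replicates 1 to 4 in order within each group, and mean and SD (n = 4) beside each group. The groups do not overlap in any panel, which was a condition for picking these genes. PANC-1 gemcitabine replicate 1 stands apart for SYT1 at 12.9 FPKM and for SDK1 at 18.3 FPKM.

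Sorted by role, the members fell into 8 lists, with 85 members in no list and some genes in more than one. Counts are from the limma tests above, and no list was tested as a set. They are to be read against the 37.3% of all genes that rose and 36.1% that fell in BxPC3, and the 20.7% and 24.0% in PANC-1. Of 58 adhesion and guidance molecules, 3 were tested in BxPC3: NRG1 rose, while ROBO1 and SEMA3A, a secreted repellent of axons, fell. In PANC-1, 9 were tested, of which TENM3, SDK1, SEMA3A and NRG1 rose, ROBO1, CDH18 and GPC6 fell and the other 2 did not pass. TENM3, a teneurin, had 1.27, 1.16, 1.26 and 1.24 FPKM with gemcitabine, against 0.318, 0.281, 0.401 and 0.298 FPKM in PANC-1 controls. All its control libraries lay under the filter (3.81-fold, limma adjusted p = 6.85e-06).

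Of 28 scaffolds of junctions, synapses and membranes, 7 were tested in BxPC3, where PARD3, ANK3 and LPP fell and the other 4 did not pass. PARD3 (chr10:34109560-34815325), a polarity protein of epithelial junctions, had 7.29, 6.97, 6.85 and 6.91 FPKM with gemcitabine, against 9.04, 9.20, 9.28 and 9.09 FPKM in BxPC3 controls. The groups were narrow and did not overlap (0.766-fold, limma adjusted p = 8.02e-06), and PARD3 fell to a like 0.744-fold in PANC-1. In PANC-1, 8 scaffolds were tested: UTRN, MAGI1, FRMD4A and ANK2 rose, PARD3 and GPHN fell and 2 did not pass. FRMD4A, which binds the polarity complex of PARD3, averaged 1.30 ± 0.193 FPKM with gemcitabine and 0.615 ± 0.0394 FPKM in controls there (SD, n = 4 each; limma adjusted p = 0.000335), and passed the filter through the gemcitabine libraries alone.

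Of 28 channels, transmitter receptors and transporters, NKAIN2, a partner of the sodium pump, was tested in BxPC3 and fell (0.399-fold, limma adjusted p = 0.000224), through its controls. In PANC-1, both tested members, the potassium channels KCNMA1 and KCNQ5, rose. KCNMA1 had 7.80, 7.69, 7.83 and 7.93 FPKM with gemcitabine, against 5.90, 5.95, 5.91 and 5.57 FPKM in controls. Control replicate 4 lay below the other controls, which were nearly equal (1.34-fold, limma adjusted p = 0.000372).

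Kinases, phosphatases and second messenger enzymes comprised 27 members. In BxPC3, 7 were tested, of which PTPRG and PTPRK rose, PRKCA and MAST4 fell and 3 did not pass. In PANC-1, 8 were tested, of which PDE10A, PRKCA, PRKCE, INPP4B, PTPRK and MAST4 rose, while the phosphodiesterase gene PDE4B (0.546-fold) and ULK4 (0.759-fold) fell. Of these rises, PDE10A, INPP4B and MAST4 passed the filter through the gemcitabine libraries alone. The kinase genes PRKD1 and STK3 were in no list and are not counted here, and both fell in PANC-1. PRKCA, the gene of protein kinase C alpha, had 14.7, 15.5, 15.3 and 15.7 FPKM with gemcitabine, against 13.6, 12.8, 12.6 and 12.6 FPKM in PANC-1 controls (limma adjusted p = 0.00684). In BxPC3 it was lower, with 2.69, 2.88, 2.63 and 2.50 FPKM with gemcitabine, against 3.68, 3.33, 3.50 and 3.68 FPKM in controls (limma adjusted p = 0.000203).

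GTPase regulators, cytoskeletal and vesicle traffic genes, 30 members, were the list with the most genes tested. In BxPC3, 5 of 16 rose, 8 fell and 3 did not pass, against 37.3% and 36.1% of all genes. The share that fell there was near the 53.1% of all tested members. In PANC-1, 5 of 21 rose, 6 fell and 10 did not pass, shares near the 20.7% and 24.0% of all genes. SPOCK1, counted here among the rises of both lines, encodes a secreted proteoglycan and not a regulator of traffic. DOCK1, EXOC4 and RABGAP1L fell in both lines. DOCK1 activates the GTPase Rac and RABGAP1L switches off Rab GTPases. EXOC4 had 2.44, 2.45, 2.19 and 2.32 FPKM with gemcitabine, against 3.70, 3.63, 3.57 and 3.71 FPKM in BxPC3 controls (0.644-fold). In PANC-1 it had 8.29, 9.05, 9.44 and 9.12 FPKM with gemcitabine, against 14.1, 14.5, 13.9 and 14.3 FPKM in controls (0.632-fold). All gemcitabine libraries lay below all controls in each line, at levels that were higher in PANC-1.

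Regulators of transcription, chromatin and RNA comprised 33 members. In BxPC3, HDAC9 rose, MECOM, NFIA, AUTS2, SMYD3 and SUPT3H fell and 2 of the 8 tested did not pass. MECOM (chr3:169083499-169663618), a zinc finger transcription factor, had 5.68, 6.09, 5.62 and 5.65 FPKM with gemcitabine, against 8.94, 8.50, 9.03 and 8.92 FPKM in controls (0.651-fold, limma adjusted p = 6.82e-07). In PANC-1, RUNX1, ZNF385D, CREB5 and GLIS3 rose, NFIA, CAMTA1 and ATRNL1 fell and 4 of the 11 tested did not pass. ATRNL1 encodes an attractin-like membrane protein and not a known regulator of transcription. ZNF385D (chr3:21412222-22373321), a zinc finger gene, had 1.29, 1.57, 1.58 and 1.44 FPKM with gemcitabine, against 0.389, 0.306, 0.325 and 0.322 FPKM in PANC-1 controls, and passed through gemcitabine libraries alone (4.39-fold, limma adjusted p = 4.73e-06).

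Of 28 enzymes of metabolism, protein modification and DNA repair, 8 were tested in BxPC3, where WWOX, IMMP2L, DPYD, FBXL17 and CPQ fell and 3 did not pass. FBXL17, a ubiquitin ligase subunit, averaged 2.75 ± 0.154 FPKM with gemcitabine and 3.84 ± 0.153 FPKM in controls (SD, n = 4 each; limma adjusted p = 4.12e-05). In PANC-1, 9 were tested: GMDS, an enzyme of fucose synthesis, rose, while IMMP2L, CPQ, GPHN and RAD51B, a recombination repair gene, fell and 4 did not pass. CPQ fell in both lines, with folds of 0.412 (BxPC3) and 0.526 (PANC-1), in BxPC3 as a gene tested through its controls alone. Of the members in no list, 3 of 15 tested rose and 8 fell in BxPC3, and 4 of 17 rose and 10 fell in PANC-1. Some of these have a role that a list names. The adenosine kinase ADK and the GTPase-activating protein DLC1 rose in BxPC3, and the enzyme gene SUMF1 fell in both lines. The counts by list therefore do not cover every tested member with that role.

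**Figure D4:**
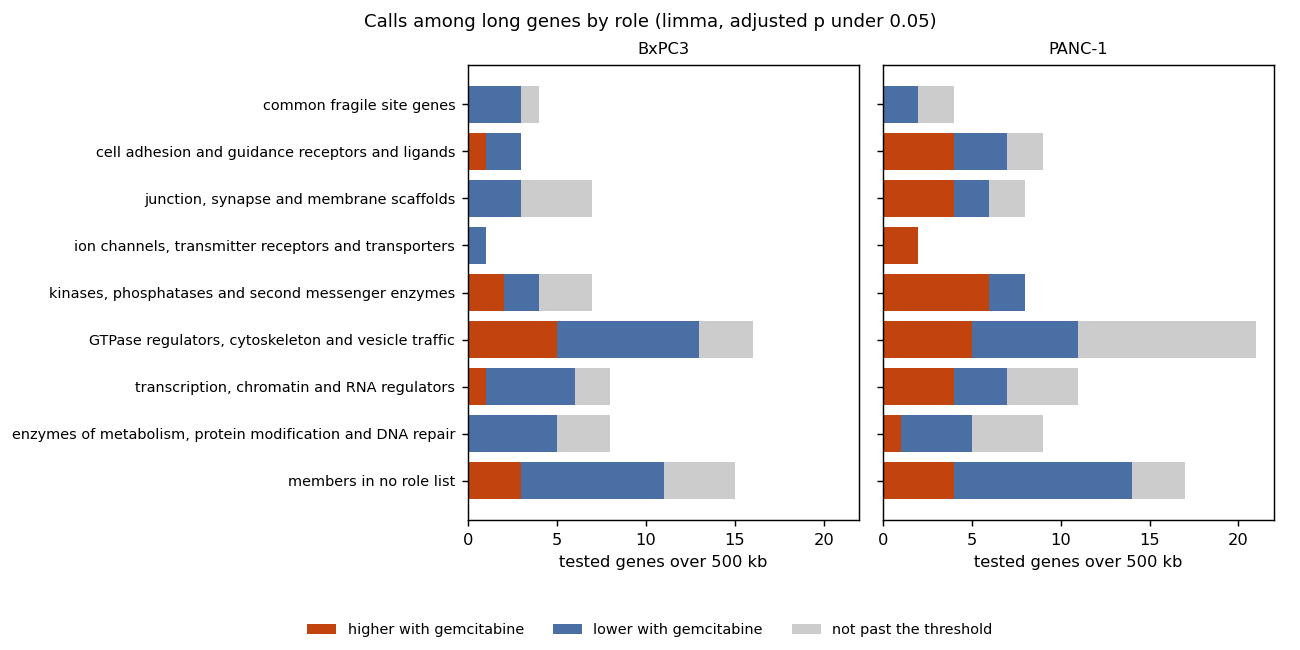
Number of tested long genes in each list by role that were higher or lower with gemcitabine or did not pass the threshold, in BxPC3 (left) and PANC-1 (right). In the list with the most tested genes, GTPase regulators, cytoskeleton and vesicle traffic, 5 rose and 8 fell of 16 in BxPC3, and 5 rose and 6 fell of 21 in PANC-1.

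All 20 genes of the list of common fragile sites are members, and most were listed at low levels. In BxPC3, 4 were tested: DPYD, WWOX and IMMP2L fell and GPHN did not pass. In PANC-1, 4 were tested: IMMP2L and GPHN fell and WWOX and NBEA did not pass. DPYD was below the filter there and went the other way from BxPC3. It averaged 0.968 ± 0.150 FPKM with gemcitabine and 0.533 ± 0.0588 FPKM in PANC-1 controls (SD, n = 4 each). WWOX (chr16:78099413-79212667), an oxidoreductase gene at FRA16D, had 2.85, 2.72, 2.63 and 2.70 FPKM with gemcitabine, against 3.91, 3.49, 3.55 and 3.23 FPKM in BxPC3 controls. All gemcitabine libraries were below all controls (0.768-fold, limma adjusted p = 0.000569). In PANC-1, WWOX had 1.33, 1.17, 1.16 and 1.20 FPKM with gemcitabine, against 1.41, 1.17, 0.913 and 1.05 FPKM in controls, and the groups overlapped (limma adjusted p = 0.613).

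GPHN (chr14:66507407-67181803), which encodes gephyrin, an enzyme of molybdenum cofactor synthesis and a synaptic scaffold, had 4.35, 4.61, 4.40 and 4.28 FPKM with gemcitabine, against 5.53, 5.50, 5.66 and 5.57 FPKM in PANC-1 controls. The groups did not overlap (0.793-fold, limma adjusted p = 0.00178). In BxPC3 it had 3.23, 3.35, 3.0 and 3.38 FPKM with gemcitabine, against 3.09, 2.90, 3.02 and 2.97 FPKM in controls, with overlapping groups (limma adjusted p = 0.103, and 0.0446 without gemcitabine replicate 3). IMMP2L fell in BxPC3 as well, with 0.861, 1.02, 0.943 and 0.984 FPKM with gemcitabine, against 1.22, 1.69, 1.47 and 1.39 FPKM in controls (0.66-fold, limma adjusted p = 0.00108).

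The other 15 fragile site genes were below the filter in both lines. FHIT, the diadenosine hydrolase gene at FRA3B, averaged 0.050 ± 0.012 FPKM with gemcitabine and 0.093 ± 0.0049 FPKM in BxPC3 controls, and 0.14 ± 0.064 FPKM with gemcitabine and 0.12 ± 0.021 FPKM in PANC-1 controls (SD, n = 4 each). CTNNA3, DAB1 and CNTNAP2 had at most 6 reads per group in BxPC3. MAGI2, a scaffold gene, averaged 0.25 ± 0.037 FPKM with gemcitabine and 0.56 ± 0.030 FPKM in PANC-1 controls, and 0.028 ± 0.0077 FPKM with gemcitabine and 0.076 ± 0.014 FPKM in BxPC3 controls. RORA, a nuclear receptor gene, averaged 0.22 ± 0.027 FPKM with gemcitabine and 0.072 ± 0.017 FPKM in PANC-1 controls, and MACROD2 averaged 0.19 ± 0.037 FPKM with gemcitabine and 0.056 ± 0.016 FPKM there in controls (SD, n = 4 each). These 3 genes were named after their values were seen. Genes below the filter entered only the fit without one, described next.

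The remaining members outside the test were also fitted without any filter, as a description of low values. In BxPC3, 18 of 239 such members with a read were called higher and 39 lower, against 14.8% and 14.2% of all genes in that fit. In PANC-1, 40 of 222 were called higher and 13 lower, against 10.1% and 8.81%. As shares, 7.53% and 16.3% of these members were called higher and lower in BxPC3, and 18.0% and 5.86% in PANC-1. The shares of all genes include the genes that passed the filter, while these members all lay below it. They are therefore no like background. Whether these members were called more or less often than other genes below the filter was not tested.

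Set side by side, the 49 members tested in both lines were lower in both for 10 genes: CPQ, DOCK1, EXOC4, GSE1, IMMP2L, NFIA, PARD3, RABGAP1L, ROBO1 and SUMF1. They were higher in both for 4: NAV2, NRG1, PTPRK and SPOCK1. Another 6 fell in BxPC3 and rose in PANC-1: KIAA1217, MAST4, MCTP1, PRKCA, SEMA3A and THSD4. As shares these are 20.4%, 8.16% and 12.2% of the 49 members, against 12.8%, 12.7% and 4.12% of all 10670 genes tested in both lines, a description with no test. Among the members with opposite calls, KIAA1217 and MAST4 passed the filter in PANC-1 through gemcitabine libraries alone, and MCTP1 in BxPC3 through controls alone. In BxPC3, CPQ passed through controls alone and SPOCK1 through gemcitabine libraries alone. Such genes were not counted among the 10670. Of the other members of the 49, 10 fell and 5 rose in BxPC3 with no call in PANC-1. In PANC-1, 5 fell and 5 rose with no call in BxPC3, and 4 passed in neither line. NAV2 in BxPC3 lost its call (limma adjusted p = 0.0233) without control replicate 2 (0.0548) or without gemcitabine replicate 1 (0.0594).

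The difference between the changes of the lines (PANC-1 change minus BxPC3 change) was tested as an interaction over all 16 libraries with limma. Of 99 members, 49 had a higher change in PANC-1, 27 a lower one and 23 did not pass, against 25.2% higher and 26.6% lower among all 14134 genes in that test. The median difference was 0.19 for members and −0.02 over all genes. Among the 49 members tested in both lines, 23 were higher, 11 lower and 15 not called, against 23.7% and 26.0% of 10670 genes, with a median change of 0.05 in PANC-1 and −0.21 in BxPC3. The difference passed for 8 of the 14 genes with calls in the same direction, a count without the share of all genes beside it. For genes chosen by opposite calls it follows largely from the choice, so their differences are given below as values without a test.

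**Figure D5:**
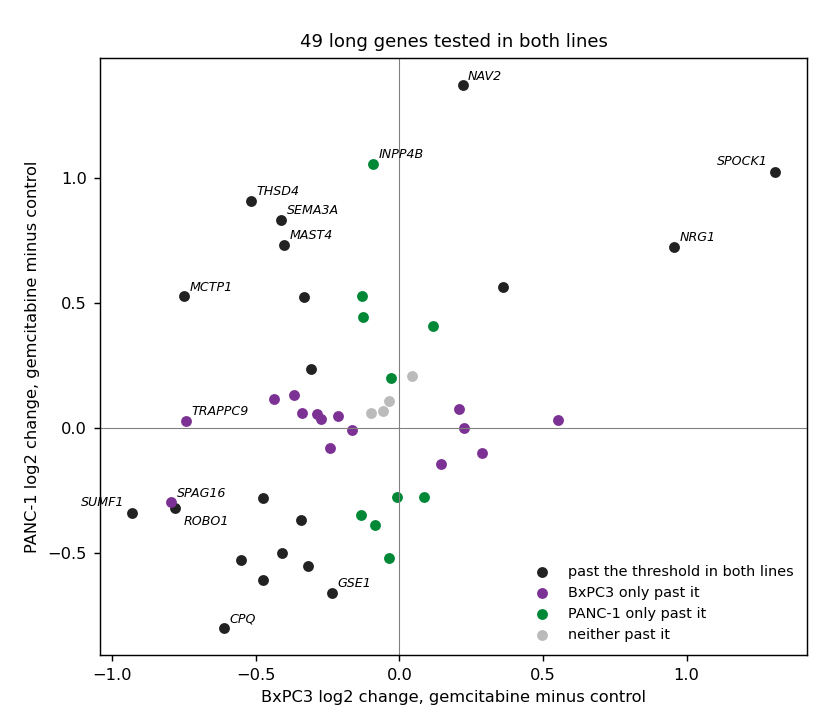
Log2 change (gemcitabine minus control on log2(FPKM + 1)) in BxPC3 (x axis) and PANC-1 (y axis) of the 49 long genes tested in both lines, coloured by the lines in which the gene passed the threshold. The 10 genes lower in both lines lie at the lower left, the 4 higher in both at the upper right, and the 6 with opposite calls, among them THSD4, SEMA3A, MAST4 and MCTP1, at the upper left.

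Opposite calls were seen for genes at quite different levels. MCTP1 had 0.417, 0.468, 0.453 and 0.413 FPKM with gemcitabine, against 1.40, 1.42, 1.39 and 1.45 FPKM in BxPC3 controls. In PANC-1 it had 9.38, 12.8, 12.4 and 12.9 FPKM with gemcitabine, against 8.12, 7.51, 7.91 and 7.94 FPKM in controls. Neither line had overlapping groups, and the difference was 1.27 (SE 0.10). In BxPC3 it was tested through its controls alone, so its groups there could not overlap.

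MAST4, a microtubule-associated kinase gene, had 2.36, 2.21, 2.02 and 1.86 FPKM with gemcitabine, against 3.34, 2.62, 3.21 and 3.29 FPKM in BxPC3 controls. In PANC-1 it had 1.13, 1.27, 1.26 and 1.29 FPKM with gemcitabine, against 0.404, 0.319, 0.330 and 0.332 FPKM in controls. The difference was 1.13 (SE 0.09), and in PANC-1 the gene passed the filter through the gemcitabine libraries alone. SEMA3A averaged 7.54 FPKM with gemcitabine and 10.4 FPKM in BxPC3 controls, and 3.60 FPKM with gemcitabine and 1.56 FPKM in PANC-1 controls (difference 1.24). THSD4, which encodes a thrombospondin-repeat protein of the extracellular matrix, averaged 4.50 FPKM with gemcitabine and 6.89 FPKM in BxPC3 controls, and 18.8 FPKM with gemcitabine and 9.56 FPKM in PANC-1 controls (difference 1.43).

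The smallest p-values of the difference went mostly to genes that were listed near 0 in one line. SDK1, ZNF385D and ANK2 were higher in PANC-1, and PRKD1, CDH18 and ATRNL1 lower there, and all 6 stayed under 0.1 FPKM in every BxPC3 library. With 1 added to each FPKM, values this low give changes near 0 in BxPC3 whatever their fold. On reads recovered from the FPKM, with limma-voom, the ANK2 difference was −0.23 (adjusted p = 0.776), against 0.91 on log2(FPKM + 1), and that of CDH18 was −0.40 (adjusted p = 0.679), so neither difference passed on the scale of folds. MECOM, the fourth of the leading positive differences, averaged 0.333 FPKM with gemcitabine and 0.0641 FPKM in controls of PANC-1, where it was below the filter.

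Of the genes that act on elongation, a list of 42 factors, 41 were tested in each line, and SUPT4H1 was listed at or near 0 in both. In BxPC3, 21 rose, 4 fell and 16 did not pass, and in PANC-1, 10 rose, 7 fell and 24 did not pass (limma), against 37.3% higher and 36.1% lower of all genes in BxPC3 and 20.7% and 24.0% in PANC-1. TOP2A, the topoisomerase gene of dividing cells, averaged 31.0 ± 1.73 FPKM with gemcitabine and 15.7 ± 0.613 FPKM in BxPC3 controls (SD, n = 4 each). In PANC-1 it averaged 42.8 ± 7.72 FPKM with gemcitabine and 11.1 ± 0.262 FPKM in controls. TOP1 rose in both lines, averaging 56.4 ± 2.23 FPKM with gemcitabine and 45.1 ± 1.63 FPKM in BxPC3 controls (SD, n = 4 each), with a limma adjusted p of 0.00369 in PANC-1. TOP2B did not pass in either line.

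POLR2A, the gene of the largest polymerase subunit, rose in BxPC3 (1.37-fold, limma adjusted p = 0.00155) and fell in PANC-1 (0.629-fold, limma adjusted p = 0.00168). CDK9, the kinase that releases paused polymerase, fell in BxPC3 (0.846-fold, limma adjusted p = 0.000893), and CDK12, a kinase of long-gene elongation, rose there (1.35-fold, limma adjusted p = 0.00549), and neither passed in PANC-1. SUPT16H rose in BxPC3 (1.43-fold) and fell in PANC-1 (0.832-fold), and the splicing factor gene SNRPA rose in both (1.43-fold and 1.91-fold). Whether these levels bear on those of the long genes was not tested.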

How the data were processed

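Poly-A RNA of BxPC3 and PANC-1 cells, with gemcitabine or as control, was sequenced in 4 libraries per group. The authors deposited FPKM per gene in 1 table per line, with gene coordinates and types. Per the submitters' processing notes, CASAVA and HISAT2 were used, with no version given, and the build is named as mm10. All 58735 gene IDs are human, and their coordinates and merged exon lengths equal GENCODE 29 on GRCh38. Neither the counting program nor its strand setting is stated in the labels or headers. Reads recovered from the deposited FPKM were whole, within 0.02 reads, for 100% of values.

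The members are protein-coding genes with a span over 500000 bases on chromosomes 1 to 22 or X. The rule itself uses no measured value, but these members and the gene lists were picked for study with earlier results of these data known. limma 3.58.1 (R 4.3.3; trend and robust moderation) was fitted per line to log2(FPKM + 1) of every gene that reached 1 FPKM in 4 or more of the 8 libraries, and over 16 libraries for the difference between lines, with Benjamini-Hochberg adjustment over all genes tested and a threshold of 0.05. On the log2(FPKM + 1) scale a fold change of a low gene is understated, and folds in the text are ratios of mean FPKM. The procedure was tested on simulated data. Summaries used Python 3.11.15 with pandas 2.3.3 and numpy 2.4.6, and figures matplotlib 3.10.9.

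Named genes are, per line, up to 8 rises and 8 falls with the largest change and no overlap of groups, the tested fragile site genes, up to 2 genes per role list with the smallest p, the 4 smallest p of the difference in each direction, the leading elongation genes with TOP1, TOP2A, TOP2B, CDK9 and CDK12, and the 3 genes on each side of the span limit. Genes named beside a count of a list or class fall outside this rule and were named after their values were seen. The alternatives tried were rescaling to TPM or by median ratios, adding 0.1 in place of 1, dropping the filter, plain limma moderation, restriction to protein-coding genes, limma-voom on the recovered reads, a replicate block, omission of each library in turn, removal of the GC trend (a spline with 5 degrees of freedom) and a minimum absolute log2 change of 1. A filter on the mean FPKM of a line was added after seeing the data. Values of some members are not reported here.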

Additional observations from a re-analysis of the deposited data

Results flagged for a closer look

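Libraries that lay apart from the other 3 of their group by Dixon's test were seen in 17 of 136 groups of named members checked, where chance gives about 1 in 20. In PANC-1 gemcitabine replicate 1 these were SDK1 at 18.3 FPKM, SYT1 at 12.9, MCTP1 at 9.38, FBXL17 at 6.66, HDAC9 at 3.2, INPP4B at 1.88 and GPC6 at 0.783 FPKM. SDK1 was above and the other 6 below the rest of the group. In BxPC3 control replicate 2 they were PTPRK at 12.1, GSE1 at 6.13, ROBO1 at 3.77 and ANK3 at 1.92 FPKM, all below the other controls. The remaining ones were MECOM at 6.09 FPKM in BxPC3 gemcitabine replicate 2, IMMP2L at 2.24 and FRMD4A at 0.673 FPKM in PANC-1 control replicate 3, KCNMA1 at 5.57 FPKM in PANC-1 control replicate 4, and PDE10A at 0.66 and MAST4 at 0.404 FPKM in PANC-1 control replicate 1.

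For the 6 genes called in opposite directions, the difference between the changes of the lines (PANC-1 minus BxPC3 on log2(FPKM + 1)) is a description, since it follows largely from that choice. It was 1.43 for THSD4, 1.27 for MCTP1, 1.24 for SEMA3A, 1.13 for MAST4, 0.85 for KIAA1217 and 0.54 for PRKCA. MAST4 and KIAA1217 passed the filter in PANC-1 through the gemcitabine libraries alone, and MCTP1 in BxPC3 through the controls alone. Among the members with the smallest p of the difference (limma interaction), it was 1.85 for SDK1, 0.91 for ANK2, 0.89 for ZNF385D and 0.87 for MECOM, and −1.43 for PRKD1, −0.97 for ARHGAP24, −0.77 for CDH18 and −0.44 for ATRNL1. Their limma adjusted p-values lay between 1.48e-11 and 9.63e-07.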

How the results depend on the processing

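Without a filter, 27 members were higher and 71 lower of 303 in BxPC3 (14.8% and 14.2% of all genes in that fit), 68 were higher and 39 lower of 306 in PANC-1 (10.1% and 8.81%), and 97 had a higher change in PANC-1 than in BxPC3. With an absolute log2 change of at least 1, the limma counts were 1 higher and 0 lower in BxPC3 (SUMF1, at −0.93, was the deepest fall), 7 higher and 1 lower in PANC-1, and 10 higher and 1 lower for the difference. The BxPC3 median of −0.225 became −0.286 with limma-voom on recovered reads, −0.281 with a pseudocount of 0.1 and −0.004 without a filter, where 303 members enter. The difference changed sign with limma-voom for ANK2 (−0.226), PTPRG (0.975), TENM3 (−0.088) and TMEM117 (−0.028), and with a pseudocount of 0.1 for PTPRG (0.535). The cause was not tested. Leaving out each library in turn gave 10 to 13 higher and 33 to 35 lower in BxPC3, with medians of −0.257 to −0.192. In PANC-1 it gave 28 to 38 higher and 25 to 33 lower, with medians of 0.025 to 0.058, and for the difference 45 to 55 higher and 22 to 28 lower. The highest PANC-1 counts were those without gemcitabine replicate 1. TPM scaling gave 14 higher and 30 lower in BxPC3. Shares of all genes are not given beside the counts for TPM scaling, the minimum change, omissions in turn or the unfiltered difference. Those counts describe the stability of the members' calls and not how long genes compare with other genes.

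Same-numbered libraries of a line did not deviate together (correlations of −0.38 to 0.19). Whether the numbers pair the samples is not settled by this, since some libraries stood apart from their groups and the labels give no pairing. With the replicate number as a block, 12 were higher and 33 lower in BxPC3, 27 and 25 in PANC-1, and 44 and 25 for the difference. For these counts, too, the shares of all genes are not given. For single named genes, 524 of the values under alternatives kept their direction and side of the threshold in BxPC3, with 11 weaker and 2 stronger, and 670 did so in PANC-1, with 1 weaker (PRKCA under the block, limma adjusted p = 0.0526) and 8 stronger. For the difference 1092 did so, with 63 weaker, 5 stronger and the 5 reversed values above. Depth limits members with few reads, whose counting error is large.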
